A study of Mus musculus with 16 samples.

Results

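The genes described are those that encode the proteins of the cytosolic ribosome, taken from RNA sequencing of B16F10 melanomas. They were chosen by symbol. A gene was a member when its symbol began with Rpl or Rps and a digit or was Rplp0, Rplp1, Rplp2 or Rpsa, and the Rps6 kinase genes and rows marked as pseudogenes were left out. The rule gave 89 of the 18929 genes listed. Of these, 77 are the established ribosomal proteins, called canonical here (43 of the large subunit, 31 of the small subunit and 3 of the stalk), and 12 are paralogues or genes that only share the prefix, such as Rps19bp1, which encodes a binding partner of Rps19. The rule used no measured value. Fau and Rack1 also encode ribosomal proteins, but their symbols put them outside the rule, and they are given beside the members.

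All tumors of the 4 groups grew from B16F10, a melanoma line derived from and injected into C57BL/6 mice. The hosts were female mice aged 7 to 8 weeks with tumors in the right abdomen. Vehicle mice (Vehicle) received corn oil with an IgG2a control antibody, and the others received an antibody against PD1 (PD1mAb, called anti-PD1 here), α-ketoglutarate at 100 mg/kg (alpha_KG, called α-KG here) or both (aKG_PD1mAb, called α-KG + anti-PD1 here), all by intraperitoneal injection over 9 to 11 days. Each group had 4 tumors, and whole tumor tissue was sequenced, so host cells are part of every value. Values are FPKM, which scales fragments to transcript length and library size, so that levels of different genes can be compared. Read counts and depth are not given in the sources used here.

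The ribosome is built from a small and a large subunit, each made of ribosomal RNA and many proteins that are needed in nearly equal amounts. The small subunit reads the messenger RNA, the large subunit joins amino acids, and the stalk, a set of acidic proteins on the large subunit, recruits the factors that drive elongation. In mammals most of these messenger RNAs start with a C followed by a run of pyrimidines, the 5′ terminal oligopyrimidine (TOP) motif, through which mTORC1 and the RNA-binding protein Larp1 adjust their translation and stability. Growing cells devote a large part of their messenger RNA to this gene group.

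The sequence around the annotated transcript start was searched for a tract of this kind. In the RefSeq promoter table (GRCm38.p6, 250 bases before to 50 bases after each annotated start), 57 of the 77 canonical genes had a window, with 67 windows in all. A C followed by at least 7 pyrimidines lay between 25 bases before and 50 bases after the start, on the sense strand, in 70.1% of their windows and in 21.4% of 32784 windows of other genes. The stretches below belong to some of the members described further on that had this tract, and others that had it are not shown. The tract is in capitals. In these stretches it starts between 5 bases before and 42 bases after the annotated start. The search did not ask whether the messenger RNA begins with the tract, so a match does not show a TOP motif.
Rps19, chr7:24884612-24884641, plus strand: cgcccgggaaaccccgtcgttCCCTTTCCC
Rpl37, chr15:5116633-5116662, plus strand: cgggggtgCTTTCTCTTCCggtctctttgg
Rpl35a, chr16:33056471-33056500, plus strand: ggcttgCCTTCCTCTTTCCgccatcttggc
Rpl36a, chrX:134585674-134585703, plus strand: gctctagCCTCTCTCTTTCCgagctgctag
Rps24, chr14:24490670-24490699, plus strand: tggggtCCTTCCTTgcgcgttgatatgatt
Rplp2, chr7:141447641-141447670, plus strand: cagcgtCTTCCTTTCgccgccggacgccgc
Rps27, chr3:90213627-90213656, minus strand: ctttcgCTCCTTTCCggcggtgacgacctc
Rps6, chr4:86857345-86857374, minus strand: gtcgggCCTCTTTTTCgtgacgcctcccag
Over the whole windows and on both strands, CCGGAAG, a core bound by ETS factors, was found in 37.3% of the canonical windows and 8.8% of the others. AAGATGG, the core of the YY1 site, which can overlap CCGGAAG by AAG, was in 16.4% against 6.32%. CACGTG, the E-box bound by Myc with Max, was in 11.9% against 7.14%, and TATAAA in 8.96% against 13.6%. These are matches of letters and do not show binding.

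The canonical genes were among the most abundant messenger RNAs of the tumors. Their mean levels over the 16 tumors had a median of 1087 FPKM, and 42 were at 1000 FPKM or more, 25 between 500 and 1000, 8 between 100 and 500 and 2 below 100. The large subunit had a median of 909 FPKM, the small subunit 1203 and the stalk 1413. The 3 highest were Rplp1, a stalk protein, at 3686 FPKM, Rps26, a small subunit protein near the messenger RNA exit, and Rps2 at the entry side, and both of these lay between 1841 and 4344 FPKM in every tumor. The 12 other members were lower, from 0.0462 FPKM for Rpl10l to 363 FPKM for Rpl36al.

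**Figure D1:**
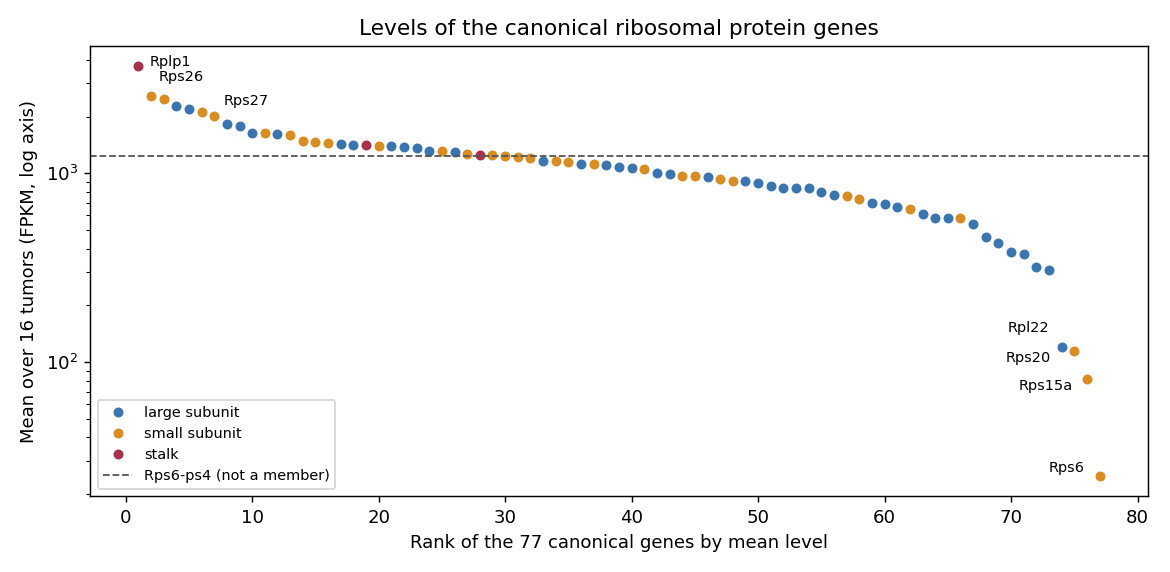
Mean FPKM over the 16 tumors (log axis) of the 77 canonical genes in order of level, colored by large subunit, small subunit and stalk, with the level of Rps6-ps4 as a dashed line. Rplp1 leads at 3686 FPKM, 42 genes are at 1000 FPKM or more, and Rps6 is last at 25.1 FPKM, far below its copy Rps6-ps4 at 1239 FPKM.

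The lowest canonical gene was Rps6, the small subunit protein that S6 kinases phosphorylate. It read 21.4, 31.6, 24.5 and 28.1 FPKM in the vehicle tumors and 19.4 to 30.6 in all others. Rps6-ps4, a row marked as a pseudogene and therefore no member, read 1180, 1231, 1261 and 1326 FPKM in the same vehicle tumors, and 1239 on average over all 16. In the GENCODE M21 transcripts (GRCm38, the assembly that the labels call mm10) the 747 coding bases of Rps6 and the same stretch of Rps6-ps4 had 0 differences. Both begin alike, and the first 60 bases are shown because the 2 rows differ so much in level.
Rps6, bases 1 to 60 of the coding sequence: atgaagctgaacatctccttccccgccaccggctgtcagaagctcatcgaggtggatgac
Rps6-ps4, aligned bases: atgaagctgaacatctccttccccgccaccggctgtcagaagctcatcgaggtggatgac
Fragments from such a stretch cannot be assigned to either gene by sequence, so the split of FPKM between Rps6 and Rps6-ps4 cannot be told apart from expression. The same holds for Rps27 and its copy Rps27rt, whose 252 coding bases had 0 differences and whose levels were 2006 and 18.3 FPKM. Rps27l, the paralogue that p53 is known to induce, differed from Rps27 at 60 of 252 bases and was at 224 FPKM. The 60-base window of the coding sequence with the most differences, 19, is shown, with differing bases in capitals.
Rps27, bases 4 to 63 of the coding sequence: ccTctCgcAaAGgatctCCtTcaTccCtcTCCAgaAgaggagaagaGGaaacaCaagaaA
Rps27l, aligned bases: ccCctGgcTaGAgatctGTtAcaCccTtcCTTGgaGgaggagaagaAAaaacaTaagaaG
Copies are common in this family. Of all stretches of 50 bases in the transcript of a canonical gene, a median of 50.7% also occurred in the transcript of another annotated gene, and 39 of the 77 canonical genes shared at least 50%. Their levels and differences are therefore less certain than those of genes without copies.

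**Figure D2:**
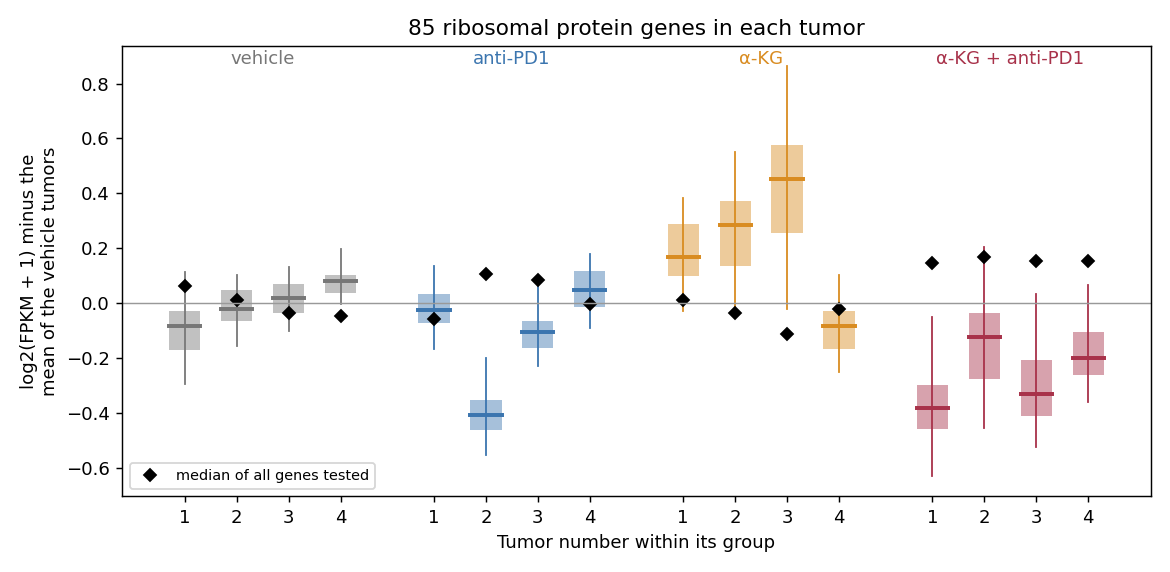
log2(FPKM + 1) of the 85 tested members in each of the 16 tumors, as the difference from each gene's mean over the vehicle tumors. Lines across the boxes are medians, boxes span the quartiles, thin lines the 5th to 95th percentiles, and diamonds are the medians of all 12850 genes tested. The medians of the members lie furthest below the diamonds in anti-PD1 tumor 2 and the 4 α-KG + anti-PD1 tumors, by 0.29 to 0.53, and furthest above them in α-KG tumors 2 and 3.

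Between tumors most members shifted in the same direction, as the plot of the 85 genes in each tumor shows. In the α-KG + anti-PD1 tumors the median member was 0.38, 0.12, 0.33 and 0.20 below its vehicle mean on the log2 scale, while the median of all genes tested was 0.15 to 0.17 above it. In the α-KG tumors the median member was at 0.17, 0.28 and 0.45 above the vehicle mean in tumors 1 to 3 and at -0.08 in tumor 4. In the anti-PD1 tumors it was at -0.03, -0.41, -0.11 and 0.05. In anti-PD1 tumor 2, 85 of 85 members were under their group mean, and in α-KG tumor 4, 81 of 85 were. At the other end, 82 were above it in anti-PD1 tumor 4 and 80 in α-KG tumor 3. The check for tumors far from the rest of their group, given in the closing section, flagged no tumor by the members' median. Across the deviations from group means, the median Pearson r between pairs of members was 0.789, as a description over 16 tumors that share scaling and library effects. Rpl4 of the large subunit, which was named after its values were seen, followed the others least (median r 0.083), and Rps27l came next (0.161).

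The members made up 14.5% to 14.8% of the FPKM sum of the vehicle tumors. The anti-PD1 tumors had 11.8% to 15.04%, those given α-KG alone 14.1% to 18.7% and those given both 12.9% to 15.4%. The treated groups all overlapped the vehicle range. The sum itself was lower with both treatments, at 514180 to 527810 against 578170 to 635200 in vehicle, and the hemoglobin genes took 2.09% to 2.23% of it there against 10.9% to 16.8% in vehicle. With hemoglobin taken out of the sum, the members' share in the tumors with both treatments was 13.2% to 15.8%, below every vehicle tumor (16.5% to 17.7%) and every α-KG tumor (16.05% to 22.0%). The anti-PD1 range was 13.6% to 17.6%. In the marker lists, summed as mean log2(FPKM + 1), red cells were at 8.29 to 8.42 with both treatments against 10.9 to 11.9 in vehicle, T cells at 2.09 to 4.74 against 0.37 to 1.30, and macrophages at 6.18 to 7.44 against 3.47 to 5.69. Skeletal muscle markers were at 0.57 to 3.01 against 2.77 to 6.01. Neutrophil markers were at 6.72 to 7.89 in α-KG tumors and at 2.11 to 4.09 in all other tumors. Melanocyte markers were at 9.17 to 9.61 in every tumor, and no marker on any of the 10 lists was at 0 in all tumors. Keratinocyte markers were nearest to it, at 0.02 to 0.25. The 6 markers of red cells all fell and the 6 of T cells all rose with both treatments, against vehicle and against α-KG, and the 5 neutrophil markers all fell against α-KG. The part of these cells in the members' values was not tested. In such bulk samples, fewer cells of a type and less RNA per cell cannot be told apart.

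The widest difference was between α-KG + anti-PD1 and α-KG alone, the comparison that shows what the antibody added to α-KG. Of the 85 members tested, 67 were lower with both treatments at a limma adjusted p under 0.05 and 0 were higher. Over all genes tested, 6.47% were called lower and 31.8% higher. The median log2 difference of the members was -0.47, that of all genes 0.16, so that the members lay 0.63 below the median gene. In 49 of the 85, every tumor with both treatments was below every α-KG tumor, where this held for 5.68% of all genes. In 0 members every such tumor was above, where 29.7% of all genes were. By subunit, 36 of 43 large subunit genes, 27 of 31 small subunit genes and 2 of 3 stalk genes fell, and of the 8 tested members outside the canonical list 2 fell. The count rests on the scaling. It was 34 lower with each tumor rescaled to the same FPKM sum, 22 with quantile normalization, 80 with tumor medians set equal, and 51 without α-KG tumor 3, where the members were highest. Over all genes 2.86%, 15.7% and 24.3% were lower in the 3 scalings. The median of all genes, 0.16 here, was 0.36, -0.04 and -0.11 in the 3 scalings.

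Rps19, the small subunit protein mutated in Diamond-Blackfan anemia, had the largest fall among the genes that passed. It read 749, 1118, 864 and 1054 FPKM with both treatments and 1554, 1785, 2367 and 1316 FPKM with α-KG. The groups did not overlap, and the log2 difference was -0.87 (SE 0.20, limma adjusted p = 0.0036). Vehicle tumors read 1103, 1102, 1323 and 1372 FPKM and anti-PD1 tumors 1395, 787, 1138 and 1285 FPKM, and both groups reached into the ranges of the other 2.
Rpl36 of the large subunit read 910, 1235, 909 and 1224 FPKM with both treatments and 1744, 1891, 2458 and 1239 FPKM with α-KG. Its log2 difference was -0.75 (SE 0.18, adjusted p = 0.00539). Here α-KG tumor 4 was barely above the highest tumor with both treatments, so that the groups only just separated.
Rpl37, also of the large subunit, read 336, 563, 352 and 452 FPKM against 691, 714, 978 and 500 FPKM, a log2 difference of -0.75 (SE 0.20, adjusted p = 0.0084). Those groups overlapped through α-KG tumor 4.

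Among the stalk genes, Rplp0, the scaffold that anchors the stalk, had the narrowest spread. It read 1177, 1108, 1234 and 1226 FPKM with both treatments and 1554, 1487, 1795 and 1449 FPKM with α-KG, a log2 difference of -0.40 (SE 0.10, adjusted p = 0.00586). Rplp1, which binds to this scaffold as a dimer with Rplp2, read 2802, 3250, 3278 and 3214 FPKM against 4116, 4713, 4743 and 3280 FPKM (-0.41, SE 0.13, adjusted p = 0.0192). After quantile normalization this difference was 0.062 and did not pass (adjusted p = 0.703). The highest tumor with both treatments and the lowest α-KG tumor were 3278 and 3280 FPKM. Rplp2 was at 1166 ± 77.3 against 1415 ± 241 FPKM (SD, n = 4), and its difference of -0.27 did not pass (adjusted p = 0.0935). Rpsa, a small subunit protein that also serves as a laminin receptor, fell with -0.50 (adjusted p = 0.00751) and read 963 to 1147 FPKM against 1300 to 1821.

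**Figure D3:**
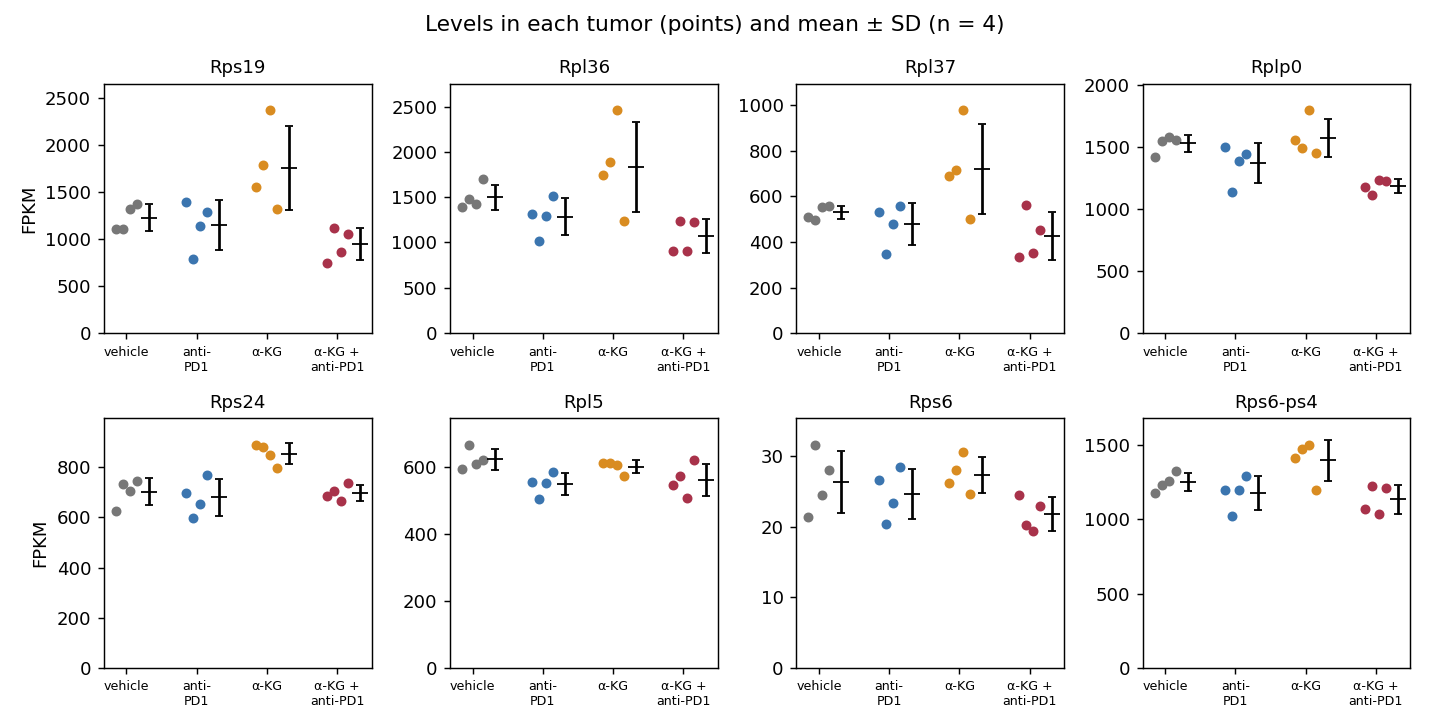
FPKM in each tumor (points) with the mean and SD of each group (n = 4, bars to the right of the points) for 7 members and Rps6-ps4, each panel from 0. α-KG tumor 3 is the highest point for Rps19, Rpl36, Rpl37 and Rplp0, while the Rpl5 values of all groups lie between 504 and 664 FPKM.

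Members known for roles outside the ribosome did not all behave alike. Rpl5 and Rpl11, which together with 5S RNA bind Mdm2 when ribosome assembly fails, differed in size. Rpl11 fell with a log2 difference of -0.52 (adjusted p = 0.0123), from 743 to 509 FPKM, whereas Rpl5 was at 561 against 600 FPKM and its difference of -0.10 did not pass (adjusted p = 0.298). The difference between Rpl11 and Rpl5 was not tested. Rps3, which also takes part in DNA repair, fell by 0.50 on the log2 scale (adjusted p = 0.00429), Rps14, a gene of the human 5q- syndrome, by 0.49 (adjusted p = 0.00452) and Rpl13a, part of the interferon gamma induced GAIT complex, by 0.39 (adjusted p = 0.0187). Rpl38, known for patterning in the mouse embryo, fell by 0.62 (adjusted p = 0.00994) and Rps27a, made as a fusion with ubiquitin, by 0.58 (adjusted p = 0.00926). Rps6 had a difference of -0.32 that did not pass (adjusted p = 0.0522), and Rps6-ps4, with which it shares its coding sequence, fell by 0.30 (adjusted p = 0.025) but was at 0.073 after quantile normalization (adjusted p = 0.381). Of the 3 most abundant members, Rps2 fell by 0.50 (adjusted p = 0.0079) and Rps26 by 0.64 (adjusted p = 0.00891), beside Rplp1.

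Paralogue pairs were set side by side in this comparison. Rps27 fell by 0.69 on the log2 scale (adjusted p = 0.0111), from 2640 to 1606 FPKM, while Rps27l was at 214 against 226 FPKM (-0.09, adjusted p = 0.566). Rps27rt ranged from 0 to 54.7 FPKM over the tumors and did not pass. Rpl22 fell by 0.35 (adjusted p = 0.00787), from 140 to 110 FPKM, and its paralogue Rpl22l1 was at 101 against 121 FPKM (-0.25, adjusted p = 0.0588). Rpl36a and Rpl36al, which encode nearly the same protein, fell by 0.41 and 0.36 (adjusted p = 0.0201 and 0.0314). Rpl7 and Rpl7l1 fell by 0.33 and 0.29 (adjusted p = 0.0135 and 0.0152), although Rpl7l1 was at 40 to 49 FPKM in the group means and Rpl7 at 753 to 952. Rpl10 fell by 0.40 (adjusted p = 0.00818) and Rps4x by 0.43 (adjusted p = 0.00854). Rpl3 was at 761 against 879 FPKM (-0.21, adjusted p = 0.0534), and its muscle form Rpl3l stayed under 1 FPKM in the group means. Rpl39 was at 372 against 409 FPKM (-0.14, adjusted p = 0.291). Differences between paralogues were not tested.

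Against vehicle, α-KG + anti-PD1 tumors had 24 of 85 members lower and 0 higher at a limma adjusted p under 0.05. Over all genes tested 10.5% were called lower and 34.9% higher. The median log2 difference of the members was -0.28 and that of all genes 0.15, and 80 of the 85 were negative. In 39 members every tumor with both treatments was below every vehicle tumor, against 6.55% of all genes, and in 0 were they all above, against 28.2%. The called genes were 13 of the large subunit, 9 of the small subunit, Rplp0 and the paralogue Rpl7l1. This count depended on the scaling. It was 2 lower and 1 higher after rescaling to the same FPKM sum. It was 10 lower after quantile normalization and 73 lower with tumor medians set equal. Over all genes 1.95% were lower and 49.0% higher with the same sum, 31.1% lower after quantile normalization and 37.4% lower with equal medians. The share of members was thus below that of all genes after quantile normalization, where the members lay 0.011 above the median gene. The median of all genes was 0.34, -0.11 and -0.16 in these scalings. With hemoglobin left out of the FPKM sum, the count stayed at 24 lower, where 8.68% of all genes were lower. The count was 9 without vehicle tumor 3 or vehicle tumor 4, beside 6.37% and 6.30% of all genes. It was 13 without α-KG + anti-PD1 tumor 1 and 12 without α-KG + anti-PD1 tumor 3, beside 9.36% and 7.28%.

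The largest falls that passed against vehicle were in large subunit genes. Rpl36 read 1395, 1477, 1427 and 1699 FPKM in vehicle and, as given above, 909 to 1235 with both treatments, a log2 difference of -0.50 (SE 0.18, adjusted p = 0.0353).
Rpl29 read 727, 791, 746 and 851 FPKM with both treatments against 986, 1087, 1071 and 1147 FPKM in vehicle (-0.46, SE 0.11, adjusted p = 0.00292). Rpl27 read 826, 799, 840 and 791 FPKM against 976, 1094, 1213 and 1197 FPKM (-0.455, SE 0.12, adjusted p = 0.00652). For all 3 genes the groups did not overlap, and the Rpl27 values with both treatments were the closest together.
Rplp0 fell by 0.36 (adjusted p = 0.00802) and Rpsa by 0.34 (adjusted p = 0.0415), while Rplp1 and Rplp2 were at -0.28 and -0.10 and did not pass (adjusted p = 0.0861 and 0.528). Rps14 fell by 0.37 (adjusted p = 0.0171), Rps3 by 0.34 (adjusted p = 0.0268), Rps4x by 0.34 (adjusted p = 0.0229), Rpl10 by 0.30 (adjusted p = 0.0291), Rpl7 by 0.28 (adjusted p = 0.0275), Rpl7l1 by 0.29 (adjusted p = 0.0137) and Rpl3 by 0.27 (adjusted p = 0.0147). Rps19 was at -0.38 (adjusted p = 0.122), Rps26 at -0.34 (adjusted p = 0.111) and Rps2 at -0.29 (adjusted p = 0.0842), and none of these passed.

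Few members passed with α-KG alone. Against vehicle, 75 of the 85 had a positive difference, with a median of 0.21 beside -0.04 over all genes. Of the 85, 3 passed as higher and 0 as lower, where 8.4% of all genes were called higher and 7.53% lower. In 3 members (Rps24, Rpl26 and Rpl37rt, the last pair named after their values were seen) every α-KG tumor was above every vehicle tumor, against 10.1% of all genes, and in 0 were they all below, against 10.4%. The 3 called were Rpl35a and Rpl36a of the large subunit and Rps24 of the small subunit. Rps24, another Diamond-Blackfan anemia gene, read 888, 881, 850 and 798 FPKM with α-KG and 624, 735, 707 and 747 FPKM in vehicle (0.28, SE 0.09, limma adjusted p = 0.0351), with no overlap. Rpl35a read 988, 1121, 1205 and 778 FPKM against 736, 745, 800 and 785 FPKM (0.40, SE 0.13, adjusted p = 0.0482), and Rpl36a 373, 414, 443 and 295 FPKM against 281, 299, 272 and 302 FPKM (0.39, SE 0.13, adjusted p = 0.0492). For both of these α-KG tumor 4 fell within the vehicle range. Without that tumor 15 members were called higher, beside 7.87% of all genes. Without any other α-KG or vehicle tumor 0 or 1 was called, beside 6.19% to 10.1% of all genes. With tumor medians set equal 0 were, beside 8.21%.

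With anti-PD1 alone, 0 members passed in either direction in limma. Over all genes 0.467% were called higher and 0.28% lower. In 3 members every anti-PD1 tumor was below every vehicle tumor, against 3.61% of all genes. They were Rpl5, Rpl7a and Rpl19, the last pair named after their values were seen. The median log2 difference of the members was -0.11 beside 0.03 over all genes, and 82 of 85 were negative. Without anti-PD1 tumor 2 the median was -0.02. Between α-KG + anti-PD1 and anti-PD1 alone, again 0 members passed, and 14.2% of all genes were called higher and 1.31% lower. With only the groups compared in the fit, 0 members and 0% of all genes were called. In 1 member, Rpl7l1, the groups did not overlap and the tumors with both treatments were lower, against 2.99% of all genes. The median was -0.14 (all genes 0.12). It turned to 0.05 after rescaling to the same FPKM sum, where 3 members were called higher, and 7 were lower with tumor medians set equal. Both counts were below the shares of all genes, which were 32.7% higher and 15.3% lower. Without anti-PD1 tumor 2, 11 were lower, beside 2.42% of all genes.

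Whether the antibody acted differently with and without α-KG was asked with the interaction, which subtracts the antibody effect seen without α-KG from that seen with it. No member passed in limma, and 81 of 85 were negative. Over all genes 7.99% were called higher and 3.13% lower. The median was -0.36 (all genes 0.15). Rps19 had an interaction of -0.76 (SE 0.28, adjusted p = 0.085). Without anti-PD1 tumor 2, in which all members were low, 24 members were called lower, and without α-KG tumor 4, 5 were. Over all genes 3.87% and 2.85% were lower in these fits. The comparisons share tumors, so their values for the members are given side by side and are not independent.

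**Figure D4:**
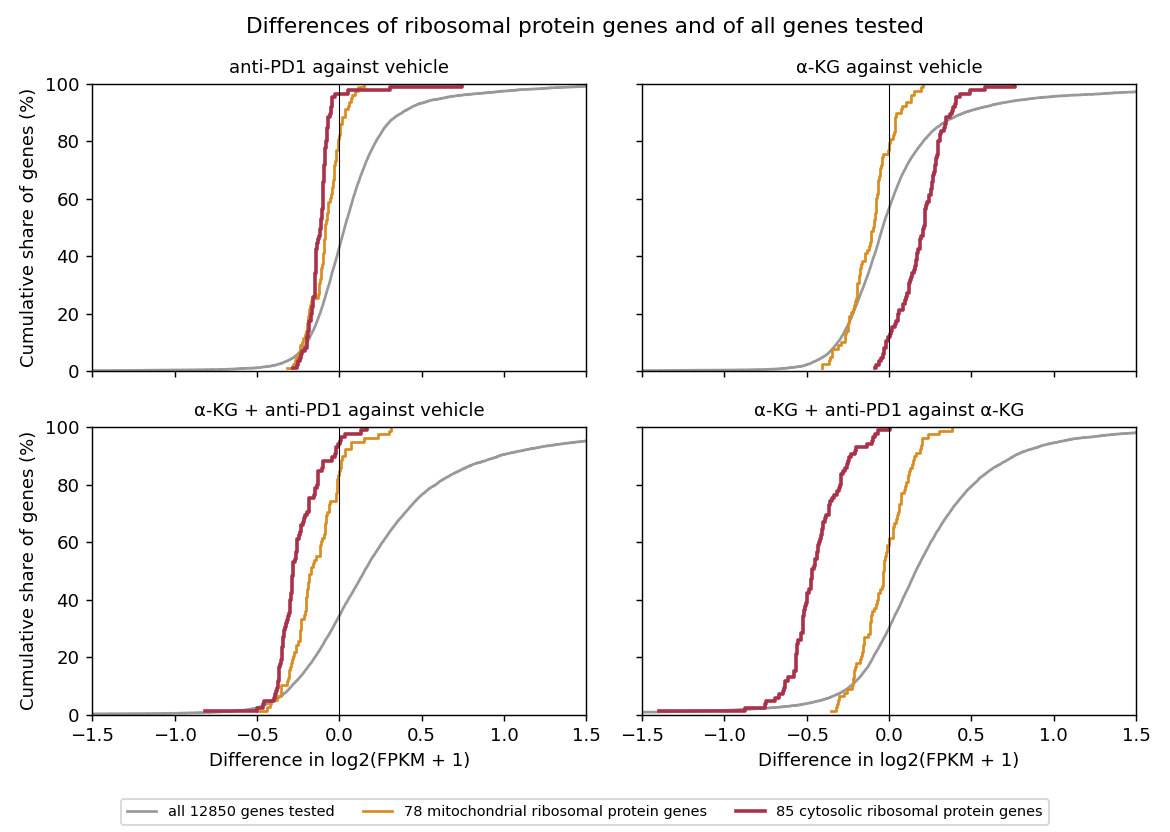
Cumulative share of genes (%) against the difference in log2(FPKM + 1) for 4 comparisons, with 85 cytosolic ribosomal protein genes, 78 mitochondrial ribosomal protein genes and all 12850 genes tested (the axis ends at 1.5 on both sides). The cytosolic genes have medians of -0.11 and 0.21 with anti-PD1 and α-KG against vehicle, and of -0.28 and -0.47 with both treatments against vehicle and against α-KG.

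Related gene groups were followed in the same fit. Fau and Rack1, ribosomal proteins outside the rule, were both lower with both treatments than with α-KG (-0.58 and -0.33, limma adjusted p = 0.00763 and 0.0178), although Rack1 was at 0.0087 after quantile normalization (adjusted p = 0.93). Against vehicle Rack1 fell by 0.33 (adjusted p = 0.0142), and Fau, at -0.20, did not pass (adjusted p = 0.293). The 15 elongation factors and further TOP genes had 4 lower and 0 higher against α-KG, beside 6.47% and 31.8% of all genes. Their median was -0.24. The 4 lower were Eef1b2 and Eef1g, parts of the exchange factor of elongation (-0.43 and -0.49), Tpt1 (-0.34) and Btf3 (-0.25), with adjusted p of 0.00672, 0.00104, 0.0216 and 0.0439.
The 78 mitochondrial ribosomal protein genes, which make the ribosome of the mitochondrion, gave these counts. Against α-KG 6 fell and 3 rose (median -0.03), and against vehicle 27 fell and 1 rose (median -0.17). Over all genes tested 6.47% were lower and 31.8% higher against α-KG, and 10.5% and 34.9% against vehicle. Of 707 other genes at a mean of 100 FPKM or more, 147 were lower and 60 higher against α-KG (median -0.10), and 243 lower and 88 higher against vehicle (median -0.15). Abundant genes outside the family were thus also below the median of all genes, which was 0.16 and 0.15 in these comparisons. Against vehicle, a larger share of these genes and of the mitochondrial ones was called lower than of the members (24 of 85). Against α-KG both shares were smaller than that of the members (67 of 85). The 556 tested genes outside the family with transcripts of at most 1000 bases had medians of -0.02 and 0.01.

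Genes for making ribosomes and for their control were counted in the same way. Of 16 ribosome biogenesis genes, 5 fell with both treatments against vehicle (Wdr12, Pes1, Bop1, Fbl and Ncl) and 2 rose (Nop58 and Ubtf), with a median of -0.16. Over all genes tested 10.5% were called lower and 34.9% higher. Against α-KG 3 rose, or 18.75%, beside 31.8% of all genes, and 0 fell. They were Nop56 and Nop58, the core of the RNA-methylating particles (0.45 and 0.44, adjusted p = 0.03 and 0.00401), and Ubtf, a factor of RNA polymerase I (0.36, adjusted p = 0.00764). With α-KG alone 5 of the 16 fell against vehicle, beside 7.53% of all genes. Among the 5 were Ncl, the nucleolar protein nucleolin (-0.51, adjusted p = 0.00977), Pes1 (-0.43, adjusted p = 0.00453) and Polr1a, the largest subunit of RNA polymerase I (-0.47, adjusted p = 0.00851).
Of 7 regulators, 4 rose against α-KG, where 31.8% of all genes tested were called higher and the median of all genes was 0.16. Rps6kb2, an S6 kinase, read 15.6, 26.0, 20.7 and 15.97 FPKM with both treatments and 7.73 to 9.28 FPKM with α-KG, and 7.47 to 13.6 in the vehicle and anti-PD1 tumors. Its log2 difference was 1.04 against α-KG (adjusted p = 0.000526) and 0.91 against vehicle (adjusted p = 0.000731). Larp1, which binds TOP messenger RNAs, rose by 0.64 against α-KG and 0.60 against vehicle (adjusted p = 0.00338 and 0.00361). Rps6kb1 and Mtor rose by 0.59 and 0.34 against α-KG (adjusted p = 0.00223 and 0.0157), and Mtor fell by 0.32 with α-KG alone (adjusted p = 0.0402). Myc, Rptor and Eif4ebp1 did not pass in either comparison.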

How the data were processed

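RNA from 16 tumors was captured by poly(A) and sequenced on a DNBSEQ instrument with dUTP-marked second strands. The authors deposited FPKM values with 2 decimals for 18929 genes. The submitters' processing notes list HISAT, Bowtie2 and mm10 without their roles. The program that computed FPKM, the annotation, the depth and any scaling between tumors are not given in the sources used here. Groups came from sample titles. Labels do not say more on replicates than that they are separate tumor samples, so p-values measure the spread between these tumors.

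FPKM values were transformed to log2(FPKM + 1), which understates changes of low genes. The test was limited to genes that reached 0.5 FPKM in 4 or more tumors (12850, with 85 of 89 members). limma 3.58.1 in R 4.3.3 fitted 1 mean per group to all 16 tumors with a trend, with Benjamini-Hochberg adjustment over all genes tested and a threshold of 0.05. The fit was also run on simulated data, with genes drawn independently and changes larger than those of the called members. That run does not cover smaller changes or shifts that many genes share in a tumor. Members and lists were chosen with earlier results of these data known. Named genes were the stalk genes and Rpsa, paralogue pairs, members with further roles, the 3 most abundant, up to 3 called genes per direction and comparison, and listed genes outside the family, of which 1 is not reported here. The other scalings, filters and left-out tumors are given in the closing section. Sequences came from GENCODE M21 and RefSeq, and tables were handled in Python 3.11.15 with pandas 2.3.3.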

Additional observations from a re-analysis of the deposited data

Results flagged for a closer look

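Among 220 sets of 4 tumors examined for a tumor far from the rest, 12 were found, and chance gives about 1 in 20. In vehicle tumor 1, Rack1 was at 1072 FPKM against 1209 to 1236 in the others, Rpl7 at 809 against 938 to 957, Rps4x at 852 against 1074 to 1110 and Btf3 at 391 against 502 to 524. In anti-PD1 tumor 2, where all members were low, Rps14 was at 882.5 against 1196 to 1241 and Rpl7 at 711 against 854 to 880. In anti-PD1 tumor 3, Rps27l was at 254 against 211 to 214. In α-KG tumor 4, Rpl5 was at 571 against 606 to 612, Rpl22l1 at 98.8 against 126 to 131 and Rpl7l1 at 49.8 against 48.1 to 48.4. In α-KG + anti-PD1 tumor 1, Rplp1 was at 2802 against 3214 to 3278 and Rps2 at 1880 against 2108 to 2132.

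For 6 genes outside the family, the effect of anti-PD1 differed with and without α-KG in limma's interaction test. The interaction on the log2 scale was 0.97 for Rps6kb2 (adjusted p = 0.0168), 0.66 for Rps6kb1 (adjusted p = 0.0257), 0.57 for Ncl (adjusted p = 0.0456), 0.56 for Polr1a (adjusted p = 0.0337), 0.47 for Mtor (adjusted p = 0.0442) and -0.44 for Eef1g (adjusted p = 0.0308). Over all genes tested 7.99% were called higher and 3.13% lower in this test, and no member passed it.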

How the results depend on the processing

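Counts of members called depended on how tumors were scaled and, for α-KG against vehicle, the combination against anti-PD1 and the interaction, more on 1 tumor. The cause was not tested. After quantile normalization the members' median minus that of all genes was 0.011 against vehicle and 0.017 against anti-PD1 for the combination, in place of -0.43 and -0.27. It was -0.14 in place of -0.63 against α-KG and -0.15 in place of -0.51 in the interaction. Against vehicle 10 members were lower for the combination in that scaling, beside 31.1% of all genes. Against α-KG 22 were (15.7%), and against anti-PD1 1 was (8.42%). For α-KG against vehicle 1 was higher and 1 lower, beside 8.09% and 12.8%. Setting tumor medians equal gave 73 lower for the combination against vehicle (37.4% of all genes), 7 against anti-PD1 (15.3%) and 0 higher for α-KG (8.21%). The same FPKM sum gave 1 higher (Rps24) and 2 lower (Rpl27, Rpl29) against vehicle, beside 49.0% and 1.95% of all genes. It gave 3 higher (Rpl4, Rpl17, Rps24) against anti-PD1 (32.7%) and 34 lower against α-KG (2.86%). With hemoglobin left out of that sum, 1 member was higher for α-KG (7.53% of all genes) and 1 lower for the combination against anti-PD1 (1.245%). Without the filter on low values 0 were higher for α-KG (5.70% of all genes), and 1 (Rpl32l) was higher for the combination against α-KG (21.8%). Without the trend 1 was higher for α-KG (8.25%). With only the groups compared in the fit, 33 members were lower for the combination against vehicle (7.22%) and 60 against α-KG (5.64%). In such fits 2 were higher for α-KG (8.545%). For the combination against anti-PD1 0 were called, beside 0% of all genes.

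Leaving out each tumor in turn gave 9 to 28 members lower for the combination against vehicle, beside 6.30% to 13.55% of all genes. It gave 0 to 15 higher for α-KG (6.19% to 10.1%) and 0 to 11 lower for the combination against anti-PD1 (0.202% to 2.42%). Against α-KG 51 to 76 were lower (4.71% to 6.70%), and in the interaction 0 to 24 (2.16% to 3.87%). Replicate numbers did not pair the tumors (correlations of same-numbered deviations -0.642 to 0.411, with 9 of 24 over 0.1, and 4 of 16 tumors closest to their own number). With the replicate number as a block, 16 members were lower for the combination against vehicle (9.29% of all genes) and 62 against α-KG (5.65%). For α-KG 1 member was higher, beside 7.66%.

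Against α-KG, quantile normalization turned Rplp1 to 0.062, Rplp2 to 0.099, Rps6-ps4 to 0.073, Rpl5 to 0.11, Rpl3 to 0.011, Rpl39 to 0.016 and Rack1 to 0.0087. The same FPKM sum turned Rpl5 to 0.13, Rpl3 to 0.023, Rpl39 to 0.093 and Rps27l to 0.14, and Rps27l was 0.000518 with hemoglobin left out and 0.0101 without α-KG + anti-PD1 tumor 1. Against vehicle, quantile normalization turned Rplp1 to 0.12 and Rplp2 to 0.11, and the same sum turned Rplp2 to 0.12. None of these reversed values of genes passed. Of the other alternatives for the named genes, 1056 kept their direction and side of the threshold, 194 no longer passed and 23 passed only there. Depth is unknown, so no counting error can be given, and low values carry the most of it.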

Other observations

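Of the 12 members outside the canonical list, 4 stayed too low to be tested. Rpl10l, Rpl39l and Rps23rg1 were listed at 0 in 8, 9 and 6 of the 16 tumors, with means of 0.0462, 0.0744 and 0.0706 FPKM, and Rpl32l had a mean of 0.209 FPKM.

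Rpl31 and the row Rpl31-ps12, which is marked as a pseudogene (both named after their values were seen) had means of 463 and 584 FPKM. Their coding sequences differed at 4 of 375 bases. In the comparison of α-KG + anti-PD1 with α-KG, Rpl31 was at 379 against 557 FPKM and Rpl31-ps12 at 488 against 717 FPKM.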
